A study of Mus musculus with 8 samples.

Results

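The genes described are 6 that encode the non-collagen proteins of bone matrix: Ibsp (bone sialoprotein), Spp1 (osteopontin), Bglap and Bglap2 (2 copies of osteocalcin), Mgp (matrix Gla protein) and Sparc (osteonectin). They were taken by symbol from the 24421 genes in the files, and all 6 were among the 12348 genes tested. RNA came from osteoblastic cells that were freed by enzymatic digestion from the calvaria of newborn mice aged 0 to 3 days. The 4 groups were WT cells at day 0, WT cells at day 12, Def6-/- cells at day 0 and Def6-/- cells at day 12, with 2 libraries in each group. WT animals were littermates of the Def6-/- animals, and both were on the C57BL/6 background. All day 12 cultures had been kept in medium supplemented with ascorbic acid (100 µg/mL), β-glycerophosphate (10 mM) and FBS (10%), which provides for collagen synthesis and mineral deposition. Def6, a guanine nucleotide exchange factor and adaptor best known from lymphocytes, was missing from every cell of the Def6-/- animals and not from osteoblasts alone. The study's text calls the libraries of a group biological replicates, without saying which animals or cultures stood behind each.

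Bone matrix is mostly type I collagen, and the proteins described here are the abundant non-collagen part. Bone sialoprotein and osteopontin belong to the SIBLING family, acidic phosphoproteins with an RGD motif that bind hydroxyapatite and integrins. Bone sialoprotein is known to promote mineral formation, whereas osteopontin inhibits crystal growth and is also made by macrophages and osteoclasts. Osteocalcin and matrix Gla protein carry glutamate residues that vitamin K-dependent carboxylation converts to calcium-binding Gla. Osteocalcin is a late marker of the osteoblast, and matrix Gla protein is an inhibitor of calcification that chondrocytes and vascular smooth muscle cells also make. Osteonectin binds collagen and calcium and is made by many stromal cells.

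Between 2414856 and 3482835 reads were counted on genes per library, so that genes with few reads are measured with wide counting error. Values are given as normalized CPM, which is CPM relative to the reads on genes after scaling by the trimmed mean of M-values (TMM), and 3 reads were worth 0.861 to 1.28 normalized CPM. Def6 had 112 to 186 reads in the WT libraries and 0 to 2 reads in the Def6-/- libraries, as the labels state. Of 12 osteoblast markers, which hold none of the 6 genes, 7 rose from day 0 to day 12 in WT cells and 7 in Def6-/- cells. Their summed level went from 23070 to 42040 normalized CPM at day 0 to between 79280 and 112900 at day 12. Col1a1 and Col1a2 made up nearly all of this sum in every library. Markers of other cells also moved with day: 29 macrophage markers summed to 357 to 622 normalized CPM at day 0 and to 4819 to 8868 at day 12, with 8868 and 4819 in the WT libraries and 5946 and 5211 in the Def6-/- libraries. The sum of 9 adipocyte markers was 36.9 to 47.0 at day 0, and at day 12 it was 311 and 334 in the WT libraries and 428 and 439 in the Def6-/- libraries, without overlap between the genotypes. Of all genes tested, 16.8% were likewise higher in Def6-/- cells at day 12 without overlap. Lpl alone made up most of this sum, with 278 and 297 in the WT and 368 and 355 in the Def6-/- libraries. At day 12, 0 of 6 tested adipocyte markers passed the adjusted threshold between the genotypes. The sum of 8 smooth muscle and pericyte markers was 7169 to 17690 at day 0 and 2657 to 2844 at day 12, and 3 of 7 tested fell in each genotype. Chondrocyte markers (12 with values) summed to 1762 to 4059 across all libraries. Of the 10 tested, 5 rose and 1 fell with day in WT cells, and 6 rose and 2 fell in Def6-/- cells. Osteocyte markers summed to 86.9 to 108 at day 0 and 234 to 453 at day 12. Pdpn alone made up 82.5 to 106 of the osteocyte sum at day 0. Endothelial markers summed to 8.83 to 14.0 at day 0 and 18.7 to 21.8 at day 12, with Tie1 and Emcn at 0 in every library. Osteoclast markers summed to 8.17 to 19.7 at day 0 and 31.9 to 69.6 at day 12, with Calcr at 0 in every library. The highest sum, in Def6-/- day 12 replicate 2, held 55.5 of Mmp9. Of 2 osteoclast markers tested, 1 rose with day in each genotype. WT day 0 replicate 1 stood apart from the other 3 day 0 libraries. Its 8 smooth muscle markers summed to 17690 normalized CPM against 7169 to 8870 in the others, its osteoblast markers to 23070 against 37480 to 42040, and 34.9% of its reads did not align uniquely against 23.3% to 25.9%. WT day 12 replicate 2 also differed from the others, with 4.01% of its gene reads on the ribosomal Rn45s (0.36% to 1.71% in the others), 8.41% of its reads not aligned (3.62% to 5.31%) and the lower Ibsp of its group. The part of these library differences and of other cell types in the results below was not tested, and in bulk RNA fewer cells of a type and less RNA per cell cannot be told apart.

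The osteocalcin copies are set out first, because their sequences decide how they can be counted. On GRCm38, the build that mm10 denotes, Bglap lies at chr3:88383501-88384464 and Bglap2 at chr3:88377736-88378699, both on the minus strand. The related Bglap3 lies beyond Bglap2 at chr3:88368616-88372743, and the 3 copies span 15.8 kb. The coding sequences of Bglap and Bglap2 in GENCODE vM21, without the stop codon, are shown with the bases that differ in capitals.
Bglap: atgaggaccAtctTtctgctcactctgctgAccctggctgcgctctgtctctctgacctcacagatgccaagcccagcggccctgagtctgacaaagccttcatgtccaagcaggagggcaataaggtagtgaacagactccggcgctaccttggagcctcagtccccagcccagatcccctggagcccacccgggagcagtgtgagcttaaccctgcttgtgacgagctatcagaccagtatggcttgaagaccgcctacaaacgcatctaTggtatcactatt
Bglap2: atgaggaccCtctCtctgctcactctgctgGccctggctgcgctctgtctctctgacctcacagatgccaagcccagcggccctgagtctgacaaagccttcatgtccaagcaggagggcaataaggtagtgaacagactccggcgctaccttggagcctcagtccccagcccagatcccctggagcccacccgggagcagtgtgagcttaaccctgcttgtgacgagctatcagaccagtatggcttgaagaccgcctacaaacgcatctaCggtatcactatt
Each has 285 bases, of which 4 differ (98.6% identity). Counted from 1 at the A of the start codon, with the base of Bglap first, the differences are A10C, T14C, A31G and T273C, and the longest stretch without a difference has 241 bases. Of all 50-base windows of the longest Bglap transcript, 74.7% also occur in a transcript of Bglap2 or Bglap3, and 88.2% of the windows of Bglap2 occur in Bglap or Bglap3. With windows of 100 bases the shares are 56.3% and 57.0%. The files keep reads with several alignments apart from the genes, and they made up 21.4% to 34.9% of all reads of a library. The read length is not given in the sources used here, so the share of osteocalcin reads set aside is unknown, and the levels of Bglap and Bglap2 and the split between them are uncertain. Ibsp, Mgp and Sparc share no 50-base window with a transcript of another gene, and Spp1 shares 9.1% of its windows with Gm42793, a gene model on the same strand inside it.

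Ibsp and Spp1 are near neighbours on chromosome 5, at chr5:104299171-104311469 and chr5:104435118-104441050 on the plus strand, within a cluster of 5 SIBLING genes (Dspp, Dmp1, Ibsp, Mepe, Spp1) that spans 270.3 kb. Mgp lies at chr6:136872435-136875823 and Sparc at chr11:55394500-55423183, both on the minus strand. Of the 6 genes, 4 had an entry among the RefSeq promoters of GRCm38.p6, and Bglap2 and Mgp had none. The 250 bases before the RefSeq start are shown for Ibsp and Bglap, whose levels moved together from day 0 to day 12, and for Spp1, the neighbour of Ibsp whose change with day did not pass the test. The RefSeq start can differ from the GENCODE coordinates given above, and the Ibsp window reaches into the gene as given there. Capitals mark ACCACA, the core that Runx2 and the other Runx factors recognise, searched on both strands (reverse complement TGTGGT).
Ibsp, chr5:104299037-104299286, plus strand: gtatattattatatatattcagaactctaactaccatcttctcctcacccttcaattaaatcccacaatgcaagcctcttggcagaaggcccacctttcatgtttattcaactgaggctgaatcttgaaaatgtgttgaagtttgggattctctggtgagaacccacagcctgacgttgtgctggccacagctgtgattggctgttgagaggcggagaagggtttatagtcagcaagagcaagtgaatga
Bglap, chr3:88384467-88384716, minus strand: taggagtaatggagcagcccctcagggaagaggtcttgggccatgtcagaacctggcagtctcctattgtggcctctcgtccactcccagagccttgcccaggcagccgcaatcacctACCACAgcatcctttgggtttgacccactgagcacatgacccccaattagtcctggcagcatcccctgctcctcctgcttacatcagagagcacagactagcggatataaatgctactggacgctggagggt
Spp1, chr5:104434861-104435110, plus strand: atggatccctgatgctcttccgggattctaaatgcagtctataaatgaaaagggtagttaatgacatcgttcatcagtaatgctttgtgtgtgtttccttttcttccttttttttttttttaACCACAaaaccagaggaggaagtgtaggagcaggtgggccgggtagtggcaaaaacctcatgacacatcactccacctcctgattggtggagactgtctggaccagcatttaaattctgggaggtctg
With positions counted from the start, the ACCACA core began at -132 in the Bglap window and at -128 in the Spp1 window, and it was not found in the Ibsp window. It was present in 14.0% of 32851 promoters of this length. The TATA box letters TATAAA, also searched on both strands, began at -27 in Bglap, at -28 in Ibsp, where they lie on the reverse strand, and at -211 in Spp1, and were present in 12.4% of all promoters. The second Spp1 entry and the Sparc entry, both inside their genes by the GENCODE coordinates, held neither motif. These matches are letters in a window and were not tested for binding.

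The first question was how the matrix genes changed over 12 days of osteogenic culture. Ibsp showed the widest range of the 6 genes. In WT cells it stood at 10.3 and 0.707 normalized CPM at day 0, which was 26 reads in replicate 1 and 2 reads in replicate 2, and at 1262 and 649 at day 12. In Def6-/- cells it stood at 1.505 and 1.02 at day 0, from 4 and 3 reads, and at 2486 and 1587 at day 12. Every day 12 library was thus far above every day 0 library in both genotypes. On summed reads, corrected for depth, the rise was 194-fold in WT cells (95% counting interval 134 to 292) and 1634-fold in Def6-/- cells (793 to 4066), where the denominator is only 7 reads. These intervals cover counting error only. Differences are given below on the log2(normalized CPM + 1) scale, where genes with few reads appear to change less than they do. On this scale Ibsp rose by 7.69 (standard error 0.73, adjusted p = 0.00027, limma) in WT cells and by 9.79 (standard error 0.73, adjusted p = 7.55e-05, limma) in Def6-/- cells.

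Osteocalcin RNA was not seen before differentiation. Bglap and Bglap2 had 0 reads in all 4 day 0 libraries, and 3 reads, the upper limit that a count of 0 allows, would have been 1.02 to 1.18 normalized CPM there. At day 12, Bglap had 22 and 18 reads in WT cells and 46 and 33 in Def6-/- cells, or 6.31 and 7.54 against 18.9 and 14.1 normalized CPM. Bglap2 had 18 and 11 reads in WT cells and 57 and 30 in Def6-/- cells, or 5.17 and 4.61 against 23.4 and 12.8 normalized CPM. The reads thus appeared in every day 12 library and remained few. With 3 reads per library as the floor at day 0, Bglap was at least 6.17-fold higher at day 12 in WT cells and at least 15.3-fold higher in Def6-/- cells, and Bglap2 at least 4.35-fold and 16.8-fold higher. In limma both rose in WT cells (Bglap adjusted p = 0.000688, Bglap2 adjusted p = 0.0024) and in Def6-/- cells (adjusted p = 0.000144 and 0.00023). Day 0 libraries without reads add no spread to these tests. Both copies passed the filter on low genes through the day 12 groups alone, so that only a rise could be called. Bglap made up 55.0% of the reads of both copies in WT replicate 1 (exact binomial 95% interval 38.5 to 70.7), 62.1% in WT replicate 2 (42.3 to 79.3), 44.7% in Def6-/- replicate 1 (34.9 to 54.8) and 52.4% in Def6-/- replicate 2 (39.4 to 65.1). All 4 intervals overlap, so no difference in the balance between the copies was detectable at this depth. Bglap3 had 2 reads in Def6-/- day 12 replicate 1 and 0 reads in the other 7 libraries.

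**Figure D1:**
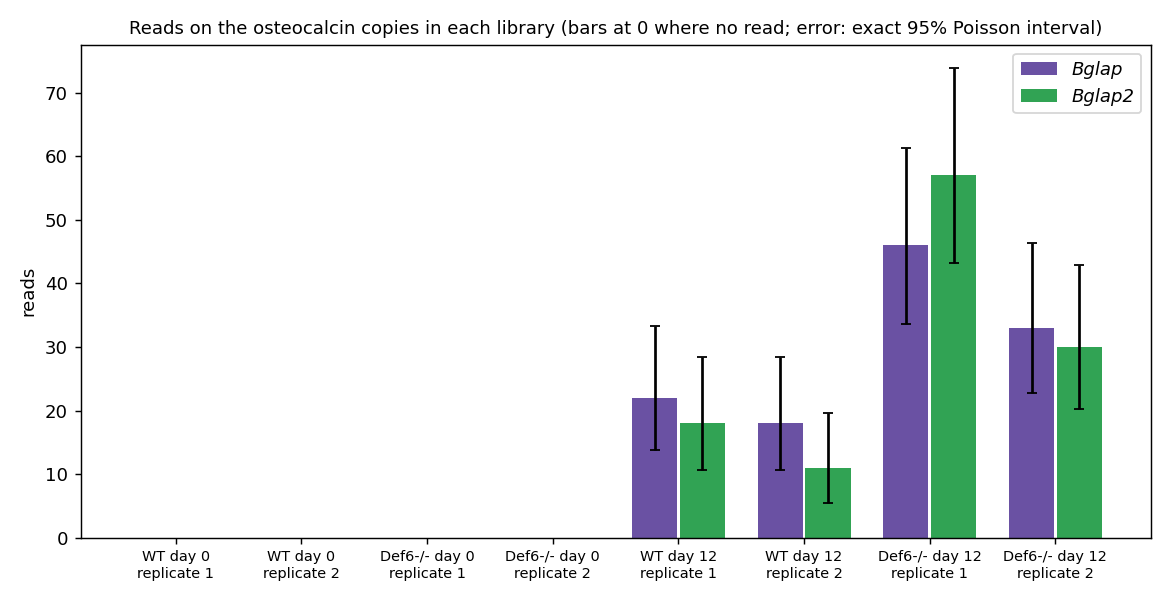
Reads on Bglap and Bglap2 (vertical axis) in each of the 8 libraries (horizontal axis), with exact 95% Poisson intervals as error bars and no bar where there were 0 reads. The day 12 counts run from 11 to 57, and the highest are those of Def6-/- replicate 1.

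Sparc had the highest normalized CPM of the 6 genes in every library, and its mean was 1.78-fold higher at day 12 in WT cells and 2.03-fold higher in Def6-/- cells. It stood at 7506 and 8447 normalized CPM in WT cells at day 0 and at 13707 and 14735 at day 12, and at 8051 and 8335 and then 17541 and 15730 in Def6-/- cells. No day 12 library reached down to a day 0 library, and replicates of a group differed by at most 1.13-fold. Sparc rose by 1.02 on the log2 scale in Def6-/- cells (standard error 0.25, adjusted p = 0.0252, limma). In WT cells the difference was 0.84 (standard error 0.25, adjusted p = 0.0512, limma), just outside the threshold. The test of the genotypes' difference in this change gave 0.18 (95% interval -0.63 to 0.996). The call in Def6-/- cells was lost without any 1 of the day 12 libraries or of the Def6-/- day 0 libraries (adjusted p = 0.0652 to 0.202), without the filter on low genes (adjusted p = 0.163) and with CPM as deposited (adjusted p = 0.0726), and it held without either WT day 0 library. In WT cells Sparc passed the threshold in edgeR (adjusted p = 0.0204), in DESeq2 (adjusted p = 0.00317) and without WT day 0 replicate 1 (adjusted p = 0.0365) or replicate 2 (adjusted p = 0.00743).

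Mgp and Spp1 followed no common course with day. Mgp stood at 1398 and 308 normalized CPM in WT cells at day 0 and at 718 and 953 at day 12, so that the day 0 libraries lay on either side of those at day 12. In Def6-/- cells it stood at 477 and 370 at day 0 and at 643 and 1019 at day 12, with both day 12 libraries above both day 0 libraries. The limma differences were 0.33 in WT cells (95% interval -0.99 to 1.65, adjusted p = 0.731) and 0.94 in Def6-/- cells (-0.38 to 2.26, adjusted p = 0.324). WT day 0 replicate 1, the library with high smooth muscle markers, had the highest Mgp of all 8. Without it the WT difference was 1.42 (adjusted p = 0.00163), without WT day 0 replicate 2 it was -0.76 (adjusted p = 0.029), and without either of these libraries the Def6-/- difference passed the threshold (adjusted p = 0.00414 and 0.00416), as it did in a fit of the Def6-/- libraries alone (adjusted p = 0.00826). Spp1 stood at 6745 and 2528 normalized CPM in WT cells at day 0 and at 2959 and 1999 at day 12. The WT difference was -0.76 (95% interval -1.75 to 0.23, adjusted p = 0.263, limma), which became -0.06 without WT day 0 replicate 1 (adjusted p = 0.903) and -1.47 without WT day 0 replicate 2 (adjusted p = 0.00095). In Def6-/- cells Spp1 stood at 3716 and 2656 at day 0 and at 2567 and 3335 at day 12, with overlapping libraries and a difference of -0.10 (-1.09 to 0.89, adjusted p = 0.91). Macrophages also make osteopontin, and the part of the macrophage markers, whose sum was 357 to 622 normalized CPM at day 0 and 4819 to 8868 at day 12, in the Spp1 level was not tested.

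**Figure D2:**
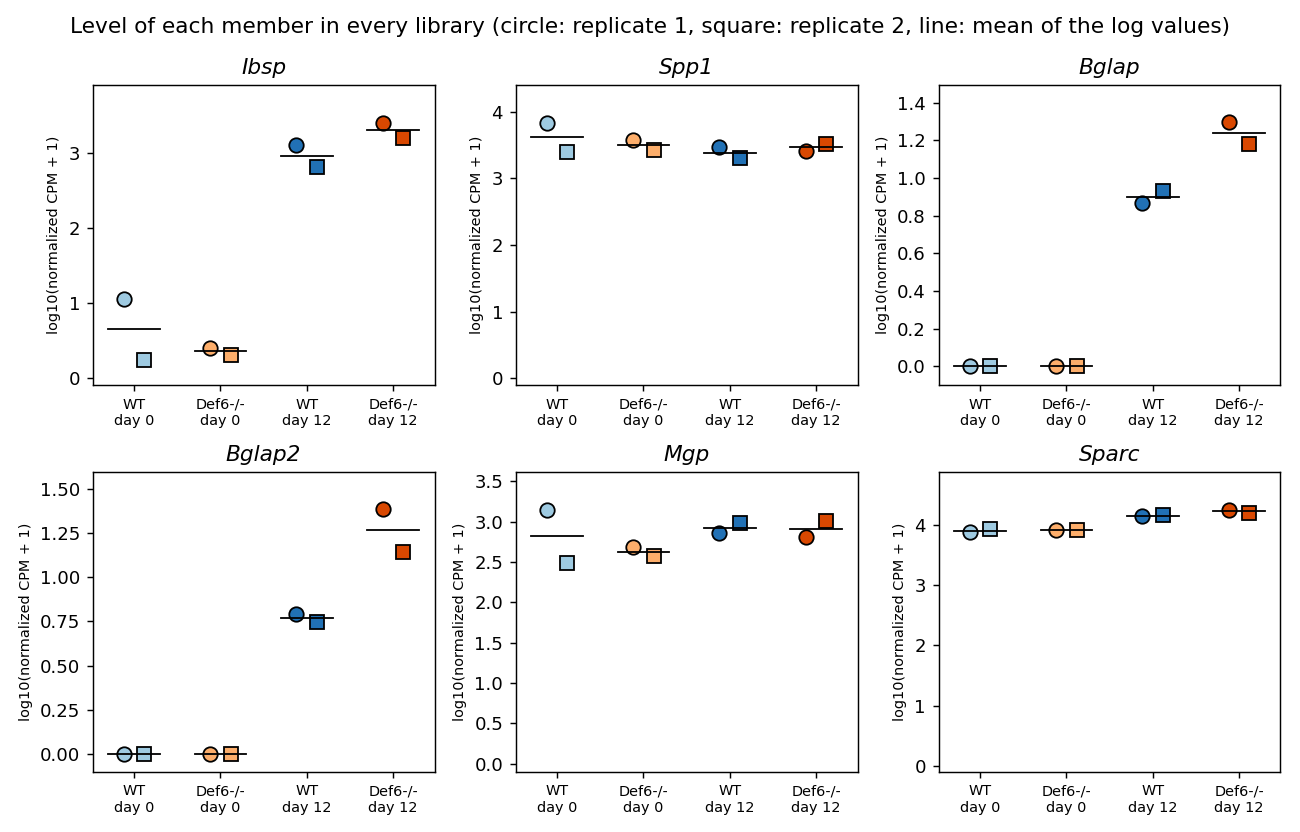
Level of each of the 6 genes, as log10 of normalized CPM + 1 (vertical axis), in the 2 libraries of each group (horizontal axis), with circles for replicate 1, squares for replicate 2 and a line at the mean of the log values. Ibsp, Bglap and Bglap2 are low or at 0 in every day 0 library and higher in every day 12 library, Sparc lies between 7506 and 8447 normalized CPM at day 0 and between 13707 and 17541 at day 12, and WT day 0 replicate 1 is the highest library for Spp1 and Mgp.

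At an adjusted p under 0.05, 3 of the 6 genes rose in WT cells (Ibsp, Bglap, Bglap2) and none fell, where 12.7% of all genes tested rose and 5.63% fell. In Def6-/- cells 4 rose (the same 3 and Sparc) and none fell, where 12% of all genes rose and 4.79% fell. For Bglap and Bglap2, without reads at day 0, a fall could not have been called. No gene of the 6 had an unadjusted p under 0.05 for a fall in limma or edgeR in either genotype, and DESeq2 gave Spp1 in WT cells an unadjusted p of 0.0209 (adjusted p = 0.0975). The median log2 difference over the 6 genes was 1.70 in WT cells, or 1.48 with the osteocalcin copies at their lower bound, and 2.57 or 2.48 in Def6-/- cells, beside medians over all genes tested of -0.001 and 0.01. Together the 6 genes took 1.19% to 1.54% of the reads on genes at day 0, 1.73% and 1.87% in WT cells at day 12, and 2.10% and 2.24% in Def6-/- cells at day 12. Sparc alone took 0.736% to 0.892% at day 0 and 1.37% to 1.69% at day 12.

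The second question was whether the matrix genes differed between Def6-/- and WT cells at day 12. The osteocalcin copies, Ibsp and Sparc were higher in both Def6-/- libraries than in both WT libraries, but no gene of the 6 passed the adjusted threshold. For Bglap the mean of the Def6-/- libraries was 16.5 ± 3.39 (SD, n = 2) and that of the WT libraries 6.93 ± 0.865 normalized CPM, a ratio of summed reads of 2.43 (95% counting interval 1.64 to 3.65). The limma difference for Bglap was 1.13 on the log2 scale (95% interval 0.36 to 1.91, unadjusted p = 0.00936, adjusted p = 1). Bglap2 averaged 18.1 ± 7.49 normalized CPM against 4.89 ± 0.396 in WT libraries, a ratio of 3.69 (2.40 to 5.82), with a limma difference of 1.64 (0.77 to 2.51, unadjusted p = 0.00217, adjusted p = 1). With reads of both copies summed, which leaves the split between them out of account, the difference was 1.45 (standard error 0.34, unadjusted p = 0.00232, adjusted p = 1, limma). In these osteocalcin tests the day 0 libraries, without reads of either copy, enter the shared spread and add nothing to it. The unadjusted p-values of the copies can therefore be too small. Ibsp averaged 2036 ± 636 normalized CPM against 956 ± 433 in WT libraries. Its limma difference of 1.13 had a 95% interval from -0.53 to 2.79 (unadjusted p = 0.156, adjusted p = 1), and Ibsp in WT replicate 1 was itself 1.94-fold above replicate 2. The error of this test is shared by the 4 groups, so it also holds the spread at day 0. There the WT replicates differed 14.5-fold, on 26 and 2 reads. A fit of the day 12 libraries alone is given below.

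For Sparc, Spp1 and Mgp the day 12 difference between the genotypes was smaller than its error. Sparc averaged 16636 ± 1281 normalized CPM in the Def6-/- libraries against 14221 ± 726, and the limma ratio was 1.17 (95% interval 0.785 to 1.74). Spp1 averaged 2951 ± 544 against 2479 ± 679, with a ratio of 1.2 (0.605 to 2.39), and the libraries overlapped. Mgp averaged 831 ± 266 against 836 ± 166, with a ratio of 0.978 (0.392 to 2.44), and the libraries overlapped. These intervals do not exclude a rise of more than 2-fold in Spp1 or a change of more than 2-fold in either direction in Mgp, so that the genotypes were not shown to be alike.

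The study named p under 0.05 and a fold above 1.2 as its threshold, and its methods also name a false discovery rate correction. With this threshold applied to the p without adjustment, called the unadjusted criterion here, 2 of the 6 genes were higher in Def6-/- cells at day 12 (Bglap and Bglap2) and none was lower, where 0.810% of all genes were higher and 0.591% lower. Both are the copies without reads at day 0, whose day 0 libraries add no spread to the test. edgeR and DESeq2 on recovered reads likewise gave 2 and no lower gene, in each case Bglap (unadjusted p = 0.0122 in edgeR and 0.0487 in DESeq2) and Bglap2 (unadjusted p = 0.004 and 0.00542), each with an adjusted p of 1. Without Def6-/- day 12 replicate 1, the library with the most osteocalcin reads, Bglap no longer met it (log2 difference 0.93, unadjusted p = 0.062), while Bglap2 did (1.23, unadjusted p = 0.0219). At an adjusted p under 0.05 the count was 0 of 6 in limma, edgeR and DESeq2, where 0% of all genes were higher and 0.00810% lower in limma, the latter being Def6. A pseudocount of 0.1 in place of 1 left Bglap2 alone under an unadjusted p of 0.05 (Bglap unadjusted p = 0.122, Bglap2 unadjusted p = 0.0428), and a pseudocount of 5 added Ibsp (unadjusted p = 0.0379), with an adjusted p of 1 for each in limma. A fit of the day 12 libraries alone also added Ibsp (unadjusted p = 0.00373, adjusted p = 0.747). In 4 genes (Ibsp, Bglap, Bglap2, Sparc) both Def6-/- libraries lay above both WT libraries, where 16.8% of all genes tested did so and 15.9% had both below. The median log2 difference over the 6 genes was 0.70, against -0.001 over all genes tested.

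**Figure D3:**
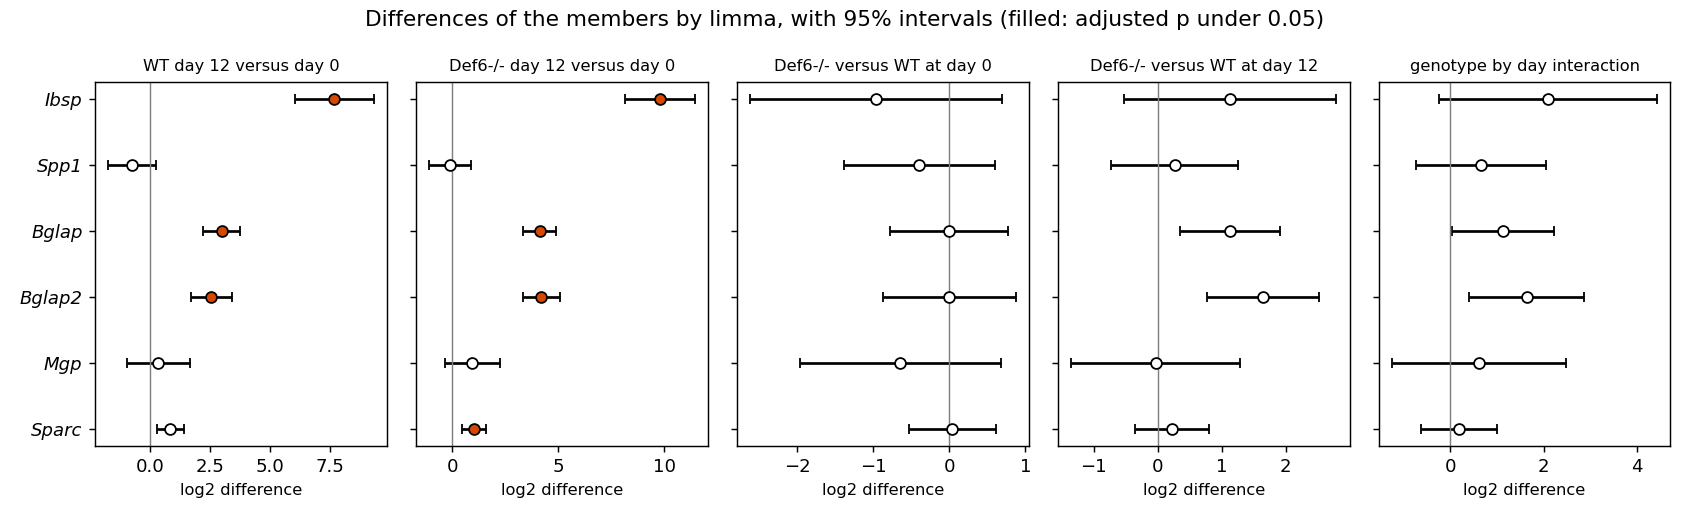
Limma differences of the 6 genes on the log2(normalized CPM + 1) scale (horizontal axes, which differ between panels) with 95% intervals, for the change with day in each genotype, the genotypes at each day and the interaction. Filled points have an adjusted p under 0.05, which were Ibsp, Bglap and Bglap2 in WT cells and these and Sparc in Def6-/- cells, and there were none between the genotypes.

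At day 0 the 6 genes did not differ between the genotypes beyond the spread of the WT replicates. Bglap and Bglap2 were at 0 in both genotypes, so that there is no ratio. Ibsp averaged 5.49 ± 6.76 normalized CPM (SD, n = 2) in the WT libraries against 1.26 ± 0.342, a limma difference of -0.96 (95% interval -2.62 to 0.70, adjusted p = 0.908). Spp1 averaged 4636 ± 2982 against 3186 ± 750, a difference of -0.39 (-1.39 to 0.60). Mgp averaged 853 ± 771 against 423 ± 75.3, a difference of -0.64 (-1.96 to 0.68), and Sparc 7976 ± 665 against 8193 ± 200.9, a difference of 0.04 (-0.53 to 0.61). For Ibsp, Spp1, Mgp and Sparc, the 4 genes with reads at day 0, the libraries of the genotypes overlapped, while 10.9% of all genes tested were higher and 11.7% lower in Def6-/- cells without overlap. No gene of the 6 met the unadjusted criterion in limma or edgeR, where 0.988% of all genes tested were higher and 1.31% lower in limma, and DESeq2 placed Mgp among the lower genes (unadjusted p = 0.0348, adjusted p = 1). At an adjusted p under 0.05 there were 0 of 6 in limma, edgeR and DESeq2, beside 0% of all genes higher and 0.00810% lower. The sign of the difference for Ibsp, Spp1 and Mgp hung on the WT replicates. Without WT day 0 replicate 1 the limma differences were 0.40 for Ibsp, 0.31 for Spp1 and 0.45 for Mgp, and without WT day 0 replicate 2 they were -2.32, -1.10 and -1.73. With 1 library left in a group, that library is assumed to vary as the libraries of the other groups do.

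**Figure D4:**
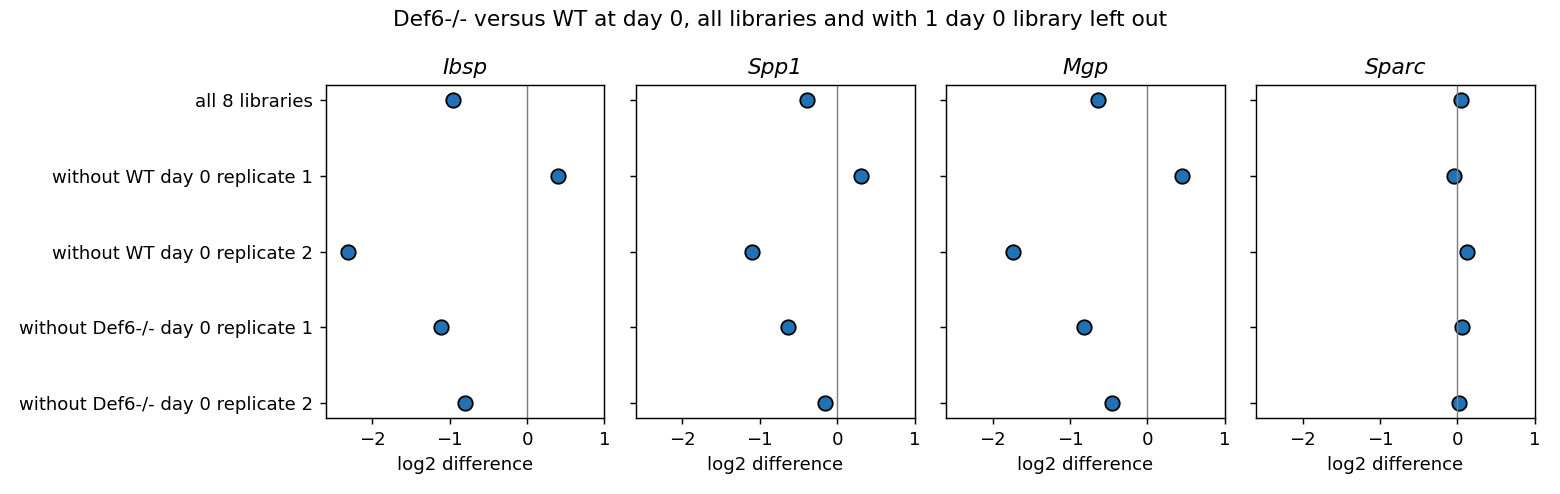
Limma log2 difference between Def6-/- and WT cells at day 0 (horizontal axis) for Ibsp, Spp1, Mgp and Sparc, with all 8 libraries and with 1 day 0 library left out (rows). The points for Ibsp, Spp1 and Mgp change side of 0 when WT day 0 replicate 1 is left out, while those for Sparc stay between -0.04 and 0.13.

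The third question was whether the change with day differed between the genotypes. The interaction was 1.13 for Bglap (95% interval 0.03 to 2.23, unadjusted p = 0.0445) and 1.64 for Bglap2 (0.41 to 2.87, unadjusted p = 0.0147), which equal their day 12 differences because both copies were at 0 in all day 0 libraries. Those libraries again add no spread, so these p-values can be too small. For Ibsp the interaction was 2.09 (-0.25 to 4.44, unadjusted p = 0.0738), for Spp1 0.66 (-0.74 to 2.06) and for Mgp 0.61 (-1.26 to 2.48). None passed the adjusted threshold (adjusted p = 1 for each in limma), as for all genes tested, where 0% were higher and 0% lower. The unadjusted criterion was met by 2 of the 6 genes in limma, by 1 in edgeR (Ibsp, unadjusted p = 0.0297, adjusted p = 1) and by 0 in DESeq2, against 0.696% of all genes higher and 0.421% lower in limma. The Ibsp interaction was 0.73 without WT day 0 replicate 1 and 3.45 without WT day 0 replicate 2 (adjusted p = 0.0023, limma), where those of Spp1 (1.37, adjusted p = 0.0278) and Mgp (1.70, adjusted p = 0.00969) also passed. In that fit, 676 of all genes tested were higher and 606 lower for the interaction. The Bglap2 interaction lay between 1.23 and 2.05 whichever library was left out, and was above an unadjusted p of 0.05 without Def6-/- day 12 replicate 1 (unadjusted p = 0.0582). The Bglap interaction lay between 0.93 and 1.33 and was above it without any 1 library other than Def6-/- day 12 replicate 2 (unadjusted p = 0.061 to 0.13).

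Per kilobase of the union of exons, the order was Spp1, Sparc, Mgp, Ibsp in WT cells at day 0 and Sparc, Spp1, Mgp, Ibsp in WT cells at day 12. This union exceeds the longest coding transcript for Sparc (3788 against 2300 bases), Mgp (1187 against 617), Spp1 (1648 against 1507) and Bglap (618 against 440). It equals that transcript for Ibsp (2068) and Bglap2 (471), so the order of genes with close values can depend on the length used. Spp1 was at 2813 ± 1810 normalized CPM per kilobase and Sparc at 2106 ± 176 in WT cells at day 0, and this pair of neighbours did not differ beyond the spread of the replicates. In Def6-/- cells at day 0 Sparc was at 2163 ± 53.0 and Spp1 at 1933 ± 455 normalized CPM per kilobase, again within the spread, with Mgp at 357 ± 63.4 and Ibsp at 0.611 ± 0.165. In WT cells at day 12 Sparc was at 3754 ± 192, Spp1 at 1504 ± 412, Mgp at 704 ± 140 and Ibsp at 462 ± 209 normalized CPM per kilobase, and Mgp and Ibsp again lay within their spread. In Def6-/- cells at day 12 Sparc was at 4392 ± 338, Spp1 at 1791 ± 330, Ibsp at 985 ± 307 and Mgp at 700 ± 224 normalized CPM per kilobase, with Ibsp above Mgp and within the spread. Bglap2 at 38.4 ± 15.9 and Bglap at 26.7 ± 5.49 stood far below, with the limit that reads shared between the copies may be missing. Among the genes with an exon length, Sparc ranked between 2 and 9 in every library and Spp1 between 3 and 13. Ibsp moved from ranks between 6524 and 11914 at day 0 to ranks 33 and 81 in WT cells and 16 and 25 in Def6-/- cells at day 12. The plot of levels by library shows the same values without the correction for length.

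Of the other SIBLING genes, Dmp1, a matrix phosphoprotein of osteocytes, rose with day as Ibsp did. It had 0 to 8 reads at day 0, and at day 12 it stood at 251 and 57.0 normalized CPM in WT cells and 91.2 and 161 in Def6-/- cells. Dmp1 rose by 5.89 in WT cells (adjusted p = 0.00159, limma) and by 5.96 in Def6-/- cells (adjusted p = 0.00149), and the genotypes overlapped at day 12. There the ratio of the Def6-/- mean to the WT mean was 0.816 for Dmp1, beside 2.13 for Ibsp. Mepe, another osteocyte product, had 0 reads at day 0 and stood at 6.89 and 0.838 normalized CPM in WT cells and 4.52 and 8.96 in Def6-/- cells at day 12, where its rise passed the test in Def6-/- cells (adjusted p = 0.0159) and not in WT cells (adjusted p = 0.0726). Mepe too passed the filter through day 12 alone, so that only a rise could be called. Dspp, the dentin sialophosphoprotein, had 1 read in each of 2 day 0 libraries and 0 in the other 6. In the SPARC family outside Sparc, 4 of 7 genes tested rose in WT cells and 5 of 7 in Def6-/- cells, and none fell, with median differences of 1.59 and 1.62. Smoc1, a modular calcium-binding protein of this family, rose by 1.68 and 1.62, its relative Smoc2 by 1.59 and 1.71, Sparcl1 (hevin) by 1.5 and 1.04, and Spock3, a testican, by 1.86 and 2.49.

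Of 6 genes of other Gla proteins and the vitamin K cycle, 3 rose and 1 fell in each genotype, with medians of 0.54 and 0.51. Gas6, a Gla-containing ligand of the TAM receptors, rose by 2.65 in WT and 2.74 in Def6-/- cells. Pros1 (protein S) rose by 0.81 and 0.85, and Vkorc1, which recycles vitamin K, by 1.30 and 1.75. Nqo1, a quinone reductase, fell, with differences of -2.93 and -3.06. Of 28 other glycoproteins of bone matrix that were tested, 11 rose and 3 fell in each genotype, with medians of 0.76 and 0.70. Clec11a (osteolectin) rose by 2.25 and 2.21 and Pcolce, the enhancer of procollagen C-proteinase, by 1.58 and 1.67. Postn (periostin) rose by 2.18 and 2.25, and Clec3b (tetranectin) by 2.98 and 3.64. The genes that fell were Fbln2 (fibulin 2), with differences of -1.56 and -1.63, Tgfbi, a TGF-β-induced adhesion protein (-0.82 and -1.11), and Ecm1 (-0.76 and -1.04).

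Among 17 tested receptors and binding partners of the matrix proteins, 6 rose and 4 fell in WT cells and 5 rose and 4 fell in Def6-/- cells, with medians of 0.32 and 0.41. Stab1, a scavenger receptor of macrophages that takes up SPARC, rose by 4.12 and 3.69, beside 26 of 29 macrophage markers that rose in WT cells and 25 in Def6-/- cells. Bmp2, a growth factor that osteoblast precursors respond to, rose by 2.88 and 2.66. Among those that fell were Cd44, a receptor for osteopontin (-1.56 and -1.60), the TAM receptor Axl (-1.2 and -1.59) and the integrin chain Itgb1 (-0.94 and -0.90). Of 11 tested enzymes that act on the matrix proteins, 3 rose and 1 fell in WT cells and 4 rose and 1 fell in Def6-/- cells, with medians of 0.53 and 0.79, beside -0.001 and 0.01 over all genes tested. Phex, an endopeptidase that cleaves SIBLING peptides, rose by 3.88 and 4.47, the transglutaminase Tgm2 by 1.5 and 1.53, and Furin by 0.53 in WT cells, beside a difference of 0.47 in Def6-/- cells (adjusted p = 0.0802). Fam20c, the kinase that phosphorylates SIBLING proteins, rose by 0.79 in Def6-/- cells, beside 0.59 in WT cells (adjusted p = 0.0691), and Thbd (thrombomodulin) fell (-0.84 and -0.66). No gene of these lists passed the adjusted threshold between the genotypes at either day or for the interaction, and none met the unadjusted criterion in limma there. Of these lists only Itgb3, Ctsk and Acp5 had values that were not whole reads, and none of these 3 was called.

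The early and general osteoblast genes gave a background for these values. Alpl, the tissue-nonspecific alkaline phosphatase, rose by 3.65 in WT cells and 4.45 in Def6-/- cells, and Col1a2 by 1.70 in both (adjusted p = 0.00791 and 0.0081, limma). Col1a1 differed by 1.38 and 1.23 (adjusted p = 0.0505 and 0.0803). The transcription factors Runx2 and Sp7 did not pass the test, with differences of 0.44 and 0.43 for Runx2 and 0.28 and 0.48 for Sp7. At day 12 both Def6-/- libraries lay above both WT libraries for Alpl, Sp7, Runx2 and Col1a2, with mean ratios of 1.42, 1.45, 1.28 and 1.21, and those of Col1a1 overlapped. Of all genes tested, 16.8% likewise had both Def6-/- libraries above both WT libraries, and 15.9% had both below. None of these 5 passed the adjusted threshold between the genotypes at day 12 in limma (Alpl unadjusted p = 0.0515, adjusted p = 1 for each), and the Alpl interaction was 0.80 (unadjusted p = 0.0301, adjusted p = 1).

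The genes with the most similar profile over the 8 libraries were sought among 9590 tested genes with a mean of at least 10 normalized CPM, by Pearson's r of log2(normalized CPM + 1). For Ibsp they were St6galnac6 (r = 0.998), Pygl (0.996) and Adh1 (0.994). For Bglap they were Smpd3 (0.995), Abi3 (0.994) and Car3 (0.993), and for Bglap2 Tcf7 (0.989), Panx3 (0.984) and Col22a1 (0.983). For Sparc they were Fam102a (0.994), Smpd3 and Sema3b (both 0.993). Spp1 was most like Syngr2 (0.982), Grpel1 and Manbal (both 0.979), and Mgp most like Erp29 (0.981), Ift20 (0.973) and Bloc1s1 (0.971). These r values describe 8 libraries that fall into 2 days, and the number of genes with an r above 0.95 was 445 for Ibsp, 346 for Bglap, 92 for Bglap2 and 412 for Sparc. For Spp1 and Mgp there were 20 and 11 such genes.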

How the data were processed

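RNA of WT and Def6-/- calvarial osteoblastic cells was analysed in 8 libraries. The authors selected poly-A RNA, made libraries with a kit that does not keep strand, used HISAT2 for alignment to mm10 and HTSeq for counting, and deposited per-library CPM, which are relative to all reads that HTSeq handled. Reads on genes made up 28.8% to 35.3% of these, and the rows outside genes were left out of library totals and tests. Read length, annotation and strand setting are not given in the sources used here. Of 114821 positive CPM values, 99.957% were whole multiples of 1 read within 0.02 read. The exceptions are 49 values of 9 genes, none among the 6 described.

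Values were set relative to gene reads and TMM factors (0.945 to 1.06) and tested with limma 3.58.1 (trend) on log2(normalized CPM + 1) in R 4.3.3, in 1 fit of 4 group means over 8 libraries, for genes whose deposited CPM averaged at least 1 in 1 or more groups. The p-values were adjusted with Benjamini-Hochberg over 12348 genes, with a threshold of 0.05. edgeR 4.0.16 (quasi-likelihood) and DESeq2 1.42.0 on recovered reads were alternatives, as were other pseudocounts, no filter, unscaled CPM, fewer libraries, summed osteocalcin copies, and totals without the 6 genes or Rn45s (the last chosen after seeing the data). In simulated data for the day 12 genotype comparison (12353 genes tested), limma recovered 100 of 100 genes changed 4-fold and 41 of 100 changed 2-fold, with 7 unchanged genes called. The changed genes were drawn only from genes with a higher mean CPM than Bglap and Bglap2, so recovery at the level of the osteocalcin copies was not simulated. Each gene was given the spread of the trend at its level. Recovery of genes that vary more than this trend was therefore not simulated either. In the real fit of this comparison the standard error was 0.25 for Sparc and 0.73 for Ibsp. Coordinates and transcripts are of GENCODE vM21 (GRCm38), and lengths are unions of exons. The 6 genes and all lists were chosen with earlier results of these data known. Named genes are the 6, their SIBLING and osteocalcin relatives, the 3 most similar genes by r, up to 3 genes per list and direction with the smallest p, 5 osteoblast markers and Def6. An item that this rule names is not reported here.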

Additional observations from a re-analysis of the deposited data

How the results depend on the processing

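Leaving out 1 library moved the count of the 6 genes higher at day 12 in WT cells from 3 to between 3 and 5, the count lower in WT cells from 0 to between 0 and 2, the count lower in Def6-/- cells at day 0 from 0 to between 0 and 3, and the count higher for the interaction from 0 to between 0 and 3, where the fit with 3 called 676 of all genes higher and 606 lower. The top of each range came without a WT day 0 library, and these libraries differ most of all replicates (chi-square per gene 34.3 against 4.53 to 12.6). The log2 differences that changed sign when a library was left out ranged at day 0 from -2.32 to 0.40 for Ibsp, -1.10 to 0.31 for Spp1, -1.73 to 0.45 for Mgp and -0.044 to 0.126 for Sparc between the genotypes. At day 12 they ranged from -0.016 to 0.545 for Spp1 and -0.36 to 0.30 for Mgp. The Mgp change in WT cells ranged from -0.76 to 1.42, the Spp1 change in Def6-/- cells from -0.35 to 0.14, and the interaction from -0.047 to 1.369 for Spp1 and -0.48 to 1.70 for Mgp. The Mgp change in WT cells was -0.029 in edgeR and -0.025 in DESeq2, and the Mgp difference at day 12 was 0.041 with CPM as deposited. The causes were not tested. Ibsp, Bglap and Bglap2 passed the threshold for the rise with day in both genotypes under every alternative run.

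The replicate numbers are not stated to mark a shared animal or day, and deviations of same-numbered libraries correlated between 0.00232 and 0.327 over the 6 pairs of groups. With the replicate block, 4 of the 6 genes rose in WT cells (Sparc adjusted p = 0.047) in place of 3, and 3 in place of 2 met the unadjusted criterion at day 12. No other call on the 6 genes changed with the block. The share of all genes called with the block is not given here, so these changes are not read as particular to the 6 genes.

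Over all genes, counts by the unadjusted criterion at day 12, 100 higher and 73 lower, became 237 and 222 without the filter, 253 and 204 without WT day 0 replicate 1, with 204 lower also without replicate 2. They also moved with only the day 12 libraries (293 and 261), and in DESeq2 (61 and 24). Without WT day 0 replicate 2, 1357 genes were higher and 1584 lower between the genotypes at day 0 at an adjusted p under 0.05, in place of 0 and 1, and the unadjusted criterion gave 2122 and 2459 in place of 122 and 162. For the interaction it gave 1797 and 1533 in place of 86 and 52. At day 0 unscaled CPM gave 138 higher and 53 lower genes in place of 122 and 162. Depth limits the osteocalcin copies and day 0 Ibsp, which rest on at most 57 reads in a library.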
